A study of Mus musculus with 18 samples.

Results

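The core of Polycomb repressive complex 2 (PRC2) was followed at the transcript level through its 6 genes Eed, Ezh2, Ezh1, Suz12, Rbbp4 and Rbbp7. They were taken by gene name, without use of any measured value, and all 6 of 54429 gene names in the larger count table were found, as they were in the other. PRC2 places methyl groups on lysine 27 of histone H3 and so helps to keep developmental genes silent. EZH2 or its paralog EZH1 carries the methyltransferase activity, EED binds the finished mark and stimulates the enzyme, SUZ12 is the scaffold on which the complex assembles, and RBBP4 or RBBP7 bind histones. In embryonic stem cells PRC2 marks silent regulators of differentiation, while EZH1 is known as the form of the enzyme that predominates in cells that divide little.

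RNA-seq was done on 18 libraries of mouse cells in 9 groups of 2. Mouse embryonic stem cells (mESCs) with FLAG-tagged EED knocked in, either of wildtype sequence (FLAG-WT) or carrying the K19R substitution of a lysine by an arginine (K19R), were sampled in LIF with the inhibitors PD0325901 (MEK1/2) and CHIR99021 (GSK3), together 2i, on day 0. Both lines were sampled again as embryoid bodies, aggregates that differentiate in rotating suspension without LIF and 2i, on days 2, 6 and 10. The remaining group held wildtype mESCs, with no FLAG-EED named on their labels, grown in LIF without 2i. By its title the series concerns the acetylation of EED by CBP and P300, and arginine cannot be acetylated as lysine can. The sources used here do not give the strain, the number of clones or the relation of the wildtype mESCs to both knock-in lines.

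The 250 bases in front of RefSeq's start of the 4 paralog genes are shown because the transcripts of each pair moved in opposite directions from day 0 to day 10, so their promoters can be set side by side. The sequences are RefSeq's on GRCm38.p6, read 5′ to 3′ on the strand of the gene and ending at the base before the RefSeq start, and all 6 members had an entry. Capitals mark the CCAAT word (CCAAT or its reverse complement ATTGG) and words of the E2F family (TTCCCGC, the variant TTCGCGC, the variant TTGCCGC and the variant TTGGCGC), on either strand. The words were chosen with these sequences in view. Ezh2 lies at chr6:47595031-47595280 (minus strand), wholly inside the gene as the annotation of the count tables places it, since that annotation starts the gene further upstream, Ezh1 at chr11:101226464-101226713 (minus), Rbbp4 at chr4:129335371-129335620 (minus) and Rbbp7 at chrX:162760122-162760371 (plus).
Ezh2: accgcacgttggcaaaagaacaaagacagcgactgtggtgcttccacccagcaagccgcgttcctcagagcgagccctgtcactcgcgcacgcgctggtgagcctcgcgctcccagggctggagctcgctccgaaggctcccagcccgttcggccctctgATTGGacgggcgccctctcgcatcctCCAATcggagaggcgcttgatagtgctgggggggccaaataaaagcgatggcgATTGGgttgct
Ezh1: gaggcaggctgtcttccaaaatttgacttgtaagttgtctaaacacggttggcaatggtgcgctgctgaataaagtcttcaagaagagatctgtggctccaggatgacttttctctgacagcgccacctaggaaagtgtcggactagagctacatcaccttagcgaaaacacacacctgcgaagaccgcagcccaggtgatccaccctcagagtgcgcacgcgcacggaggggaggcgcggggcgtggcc
Rbbp4: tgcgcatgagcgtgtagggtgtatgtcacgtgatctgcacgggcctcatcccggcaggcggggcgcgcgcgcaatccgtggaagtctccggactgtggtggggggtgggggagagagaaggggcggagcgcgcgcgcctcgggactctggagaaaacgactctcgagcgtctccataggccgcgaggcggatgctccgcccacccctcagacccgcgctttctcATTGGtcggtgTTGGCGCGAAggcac
Rbbp7: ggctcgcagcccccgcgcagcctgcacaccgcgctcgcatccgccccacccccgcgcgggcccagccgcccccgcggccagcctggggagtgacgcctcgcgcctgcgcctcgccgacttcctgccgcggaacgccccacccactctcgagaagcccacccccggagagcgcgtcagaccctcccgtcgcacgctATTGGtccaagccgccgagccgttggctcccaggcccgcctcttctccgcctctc

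Ezh2 held 3 CCAAT words and Ezh1 none, and the upstream GC content was 63.6% for Ezh2 and 55.2% for Ezh1. Rbbp4 held 1 CCAAT word and 2 overlapping E2F words next to its start, and Rbbp7 held 1 CCAAT word and no E2F word, at 67.6% and 76.4% GC. Of the members not shown, Suz12 (chr11:79992856-79993105, plus, 73.6% GC) held 1 word of each kind and Eed (chr7:89980977-89981226, minus, 54.4% GC) neither. The GC box GGGCGG, not in capitals, stood 3 times in front of Suz12, 2 times each in front of Rbbp4 and Rbbp7, and not in front of the other 3. Over all 32851 promoters in the table, 33.8% held a CCAAT word in the same 250 bases, 7.89% an E2F word and 32.7% a GC box, and the median GC content was 52.4%. Past the start, outside these bases, Ezh2 held an E2F word from base 5 and Eed a CCAAT word from base 26. Rbbp7 held a CCAAT word across its start and GC boxes from bases 11 and 39. In the whole window of 300 bases, 37.4% of promoters held a CCAAT word, 9.57% an E2F word and 35.7% a GC box. A matching word is a description of the letters, not a binding site.

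On GRCm38 the annotation of the tables places Eed on chromosome 7 (89954654 to 89980983, minus strand, 3828 exonic bases), Ezh2 on chromosome 6 (47530139 to 47595341, minus, 6678), Ezh1 on chromosome 11 (101191115 to 101226463, minus, 7440), Suz12 on chromosome 11 (79993106 to 80034123, plus, 4945), Rbbp4 on chromosome 4 (129307100 to 129335370, minus, 8744) and Rbbp7 on chromosome X (162760402 to 162779092, plus, 2909). Pairs were counted without regard to strand, and exons of 5 members overlap exons of an opposite-strand gene. The overlaps are 782 bases with Sync and 796 with Gm26722 for Rbbp4, 261 with E230029C05Rik for Eed, 178 with Gm26563 for Suz12, 174 with Gm26625 for Ezh2 and 174 with Txlng for Rbbp7. Txlng had 18755 counts over the 16 FLAG-EED libraries, and the other 5 overlapping genes 81 to 842 each. Of the 50-base words in the transcripts of Rbbp7, 6.97% also occur in those of the gene Gm6382, against 0.862% for Rbbp4 (in 13 other genes), 0.307% for Eed, 0.0930% for Ezh1 and 0 for Ezh2 and Suz12. These transcripts are from a later GENCODE release than the annotation of the counts, and the words were compared in the sense direction only. Rbbp7 counts are uncertain on account of these words and the Txlng overlap, to an extent that was not tested.

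The 16 FLAG-EED libraries held 20158077 to 28917558 counts and those of the wildtype mESCs 14190166 and 37375083. Each member had 670 to 30311 counts in every library, so all 6 passed the filter on low counts. Summed over 9 pluripotency genes, the day 0 libraries held 6020 to 6356 CPM (counts scaled to library size) and the wildtype mESCs 4546 to 4606, and all 9 were above 0 in these libraries. FLAG-WT day 0 replicate 2 stood apart from replicate 1 in endoderm genes, with 27.7 to 110.4 CPM over 9 genes across this pair, and Afp, a gene of visceral endoderm, was at 1.79 CPM in replicate 1 and 55.6 in replicate 2. Leaving replicate 2 out ended 4 calls of a member, each given beside its result. The lines also stood apart in the Y-linked demethylase gene Uty, at 1.08 to 5.02 CPM over the 8 FLAG-WT libraries, 15.1 to 25.1 over the 8 K19R libraries and 39.2 and 42.5 in the wildtype mESCs, and its part in the members' results was not tested.

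Over the whole course, from day 0 to 10, 2 genes of the core went up and 4 went down in both lines: Ezh1 and Rbbp7 rose, and Eed, Ezh2, Suz12 and Rbbp4 fell. All 6 passed the test (edgeR's quasi-likelihood test, two-sided, p adjusted by Benjamini-Hochberg over all genes, threshold 0.05) in FLAG-WT, where 77.9% of 19092 genes did, and all 6 in K19R, where 73.9% did. The 2 that rose compare with 37% of genes called higher in FLAG-WT and 38.1% in K19R, and the 4 that fell with 40.9% and 35.8% called lower. The median absolute log2 change was 1.47 over the members and 1.28 over all genes in FLAG-WT. RNA came from whole cultures, so fewer cells of a type and less RNA per cell cannot be told apart.

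Ezh2, the main methyltransferase gene of dividing cells, kept its day 0 level longer in FLAG-WT than in K19R. FLAG-WT libraries held 136 and 142 CPM of Ezh2 on day 0, 129 and 138 on day 2, 136 and 136 on day 6 and 89.0 and 92.0 on day 10 (levels here are CPM with TMM scaling, the trimmed mean of M-values, given for replicate 1 and then replicate 2). K19R libraries held 148 and 141, then 136 and 149, then 90.4 and 93.1 and at last 94.0 and 98.0 CPM. The K19R libraries of day 6 lay just below those of its day 10, while those of FLAG-WT on day 6 lay within the range of its days 0 and 2. In FLAG-WT, Ezh2 fell between days 6 and 10 (log2 change -0.59 ± 0.07 SE, edgeR adjusted p = 1.1e-07). In K19R it fell between days 2 and 6 (-0.64 ± 0.07, edgeR adjusted p = 4.5e-09), and the steps differed between lines from day 2 to 6 (-0.66 ± 0.09, edgeR adjusted p = 2.8e-06) and from day 6 to 10 (0.65 ± 0.10, edgeR adjusted p = 5.3e-06). Ezh2 was lower in K19R on day 6 (-0.57 ± 0.07, edgeR adjusted p = 6.3e-08), a 1.48-fold difference. On day 0 (0.05 ± 0.07, edgeR adjusted p = 0.68), day 2 (0.09 ± 0.07, edgeR adjusted p = 0.29) and day 10 (0.08 ± 0.07, edgeR adjusted p = 0.31) the difference did not pass. With library totals in place of TMM, the FLAG-WT step from day 2 to 6 turned from 0.02 ± 0.07 (edgeR adjusted p = 0.78) to -0.37 (1.2e-05), the line differences became -0.28 (adjusted p = 0.012) from day 2 to 6 and 0.59 (1.4e-05) from day 6 to 10, and on day 10 Ezh2 passed as higher in K19R (0.39, adjusted p = 1.8e-05).

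Ezh1, the paralog with the weaker methyltransferase activity, rose in both lines, and by less in K19R over the first step. FLAG-WT libraries went from 36.6 and 37.4 CPM of Ezh1 on day 0 to 105 and 102 on day 2, 205 and 216 on day 6 and 189 and 192 on day 10. In K19R the values were 43.9 and 44.5, 77.6 and 72.7, 121 and 133 and 155 and 153 CPM. The libraries of the lines did not overlap on any day, with K19R above FLAG-WT on day 0 and below it afterwards. The rise from day 0 to 2 was 1.48 ± 0.07 log2 in FLAG-WT and 0.77 ± 0.07 in K19R, and the difference of the steps passed (-0.72 ± 0.10, edgeR adjusted p = 3.7e-06). Ezh1 was lower in K19R on day 2 (-0.46 ± 0.07, edgeR adjusted p = 3.1e-06), on day 6 (-0.73 ± 0.07, edgeR adjusted p = 3.8e-10) and on day 10 (-0.31 ± 0.07, edgeR adjusted p = 0.00025). With library totals only, the day 10 difference was -0.0024 (adjusted p = 0.98). On day 0 Ezh1 was higher in K19R (0.26 ± 0.07, edgeR adjusted p = 0.023), a call lost on leaving out each of the 4 day 0 libraries in turn (edgeR adjusted p of 0.11 to 0.16). The step from day 2 to 6 was smaller in K19R (-0.27 ± 0.09, edgeR adjusted p = 0.021), which was lost without a low-count filter, without 1 of 4 libraries (FLAG-WT day 2 replicate 2, FLAG-WT day 6 replicate 2, K19R day 2 replicate 1 or K19R day 6 replicate 1) and with library totals (0.11). Between days 6 and 10 Ezh1 rose in K19R (0.28 ± 0.07, edgeR adjusted p = 0.00065) and did not pass in FLAG-WT (-0.14 ± 0.06, edgeR adjusted p = 0.078), where with library totals it passed as lower (-0.17, 0.032).

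**Figure D1:**
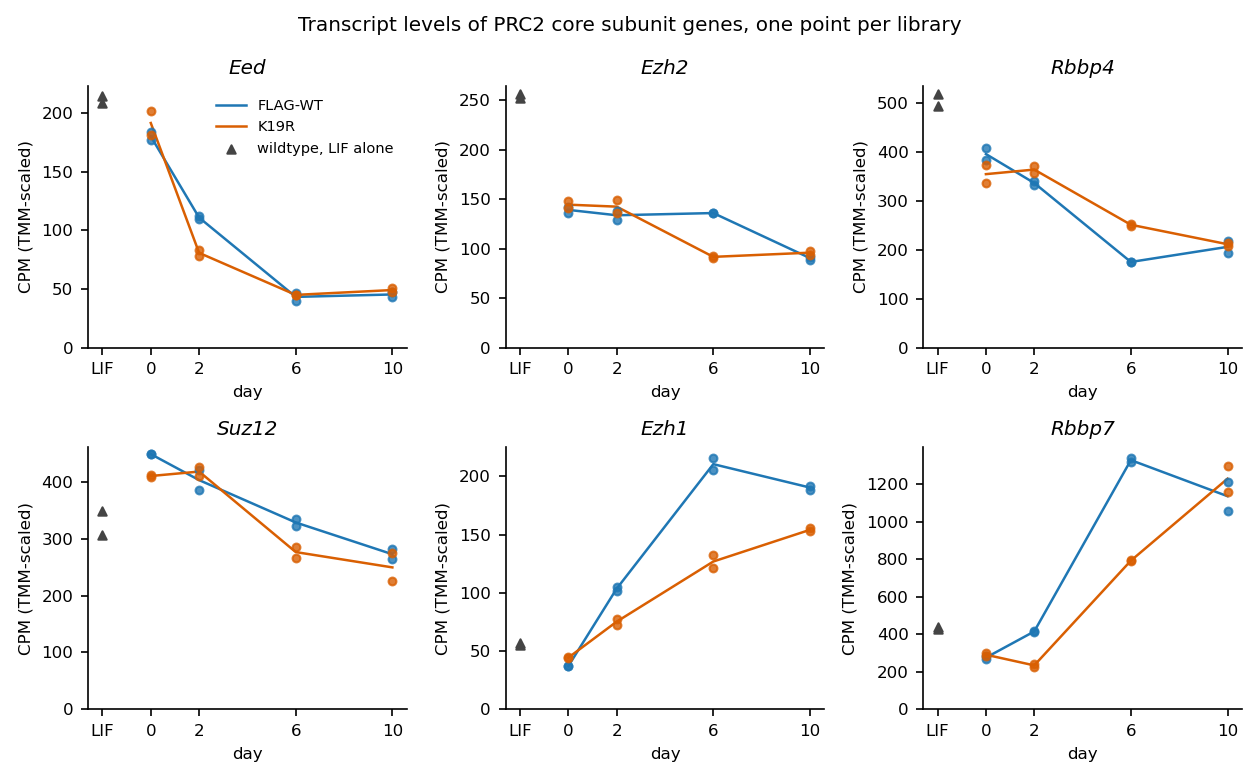
Level of each member (CPM, TMM-scaled, linear axis from 0) against day, 1 panel per gene, with 1 point per library, lines through the group means and triangles for the wildtype mESCs in LIF alone. Eed, Ezh2, Rbbp4 and Suz12 end below their day 0 levels and Ezh1 and Rbbp7 above them in both lines, and in CPM the lines are furthest apart on day 6 for Ezh2, Ezh1, Rbbp4 and Rbbp7.

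Per kilobase of exon, a scale on which the genes can be compared, Ezh1 overtook Ezh2 between days 2 and 6 in both lines. The Ezh1 share of the summed per-length level of the pair was 19.5 and 19.1% in the FLAG-WT libraries on day 0, 42.2 and 39.8% on day 2, 57.6 and 58.7% on day 6 and 65.6 and 65.2% on day 10. In K19R the Ezh1 share was 21.01 and 22.1%, 33.9 and 30.4%, 54.6 and 56.1% and 59.7 and 58.3%, and in the wildtype mESCs 16.4 and 16.6%. K19R libraries lay above those of FLAG-WT on day 0 and below them on every later day, with no overlap. The share does not depend on how libraries are scaled to each other. With 2 libraries against 2, the smallest two-sided p of an exact permutation test is 0.333, so the shares carry no test.

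Eed, which encodes the subunit that reads trimethylated lysine 27 and that was edited in both knock-in lines, fell up to day 6 and then stayed low. The fall in FLAG-WT was -0.70 ± 0.07 log2 from day 0 to 2 and -1.35 ± 0.08 from day 2 to 6. In K19R these steps were -1.25 ± 0.08 and -0.85 ± 0.08. FLAG-WT libraries held 183 and 177 CPM of Eed on day 0, 112 and 109.6 on day 2, 46.9 and 39.5 on day 6 and 47.4 and 43.2 on day 10, and K19R libraries 201 and 181, 78.5 and 83.0, 44.8 and 45.1 and 50.6 and 47.6. The lines overlapped on day 0, were apart on day 2 with K19R lower, and on day 6 the K19R libraries lay within the FLAG-WT range. On day 10 the K19R libraries lay just above those of FLAG-WT, without overlap. Eed fell more in K19R than in FLAG-WT from day 0 to 2 (difference of the steps -0.54 ± 0.11, edgeR adjusted p = 0.00030) and less from day 2 to 6 (0.51 ± 0.11, edgeR adjusted p = 0.00057). Over the whole course the fall was -1.99 ± 0.08 log2 in FLAG-WT and -1.96 ± 0.08 in K19R, or 3.97-fold and 3.90-fold. On day 2 Eed was 1.37-fold lower in K19R (-0.46 ± 0.08, edgeR adjusted p = 2.2e-05). No other day passed with TMM scaling, and with library totals only Eed was higher in K19R on day 6 (0.41, edgeR adjusted p = 0.00016) and day 10 (0.42, 0.00014). Counts per gene show neither the tag nor the substitution, so they do not check the labels.

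Suz12, the scaffold gene, had the narrowest range of the 6 over all 9 group means, 1.80-fold, with the wildtype mESCs included. Over the 8 FLAG-EED groups alone Ezh2 varied less. Its root mean square about its own mean was 0.29 log2, against 0.31 for Suz12. FLAG-WT libraries held 450.0 and 449 CPM of Suz12 on day 0, 386 and 421 on day 2, 335 and 323 on day 6 and 282 and 264 on day 10. K19R libraries held 413 and 409, 426 and 411, 287 and 267 and 225 and 275 CPM. FLAG-WT was above K19R without overlap on days 0 and 6, and the lines overlapped on days 2 and 10. Suz12 fell by 0.72 on the log2 scale from day 0 to 10 in both lines (edgeR adjusted p = 4.3e-09 in FLAG-WT and 5.1e-09 in K19R). The lower level in K19R on day 6 (-0.25 ± 0.08, edgeR adjusted p = 0.0079) was lost without FLAG-WT day 6 replicate 1 (adjusted p = 0.062) or K19R day 6 replicate 2 (0.090) and turned with library totals (0.11, 0.20). On day 10 Suz12 did not pass (-0.13 ± 0.08, edgeR adjusted p = 0.16), but passed as lower in K19R with RLE size factors (-0.19, 0.036) and with DESeq2 (-0.19, 0.034). Without K19R day 10 replicate 2 the day 10 difference was -0.27. With library totals it turned and did not pass (0.17, edgeR adjusted p = 0.051). Its larger fall in K19R from day 2 to 6 (-0.30 ± 0.11, edgeR adjusted p = 0.027) was lost in 4 of the 8 fits that left out 1 library, without FLAG-WT day 2 or day 6 replicate 1, K19R day 2 replicate 1 or K19R day 6 replicate 2, and turned with library totals (0.079, 0.56). The FLAG-WT fall from day 6 to 10 (-0.27 ± 0.08, edgeR adjusted p = 0.0066) was lost without FLAG-WT day 6 replicate 1 (0.058) or day 10 replicate 2 (0.051). In K19R that step did not pass (-0.15 ± 0.08, edgeR adjusted p = 0.10), but passed as a fall with library totals, with only the groups compared and without K19R day 10 replicate 2.

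Rbbp7, an X-linked gene for a histone-binding subunit, reached the highest per-length level of the 6 (457 CPM per kb of exon in FLAG-WT on day 6) and took opposite first steps in the lines. FLAG-WT libraries held 268 and 281 CPM of Rbbp7 on day 0, 412 and 417 on day 2, 1318 and 1341 on day 6 and 1213 and 1060.2 on day 10. K19R libraries held 299 and 282, then 224 and 242, then 788 and 796 and at last 1161 and 1299 CPM. From day 0 to 2 Rbbp7 rose in FLAG-WT (0.59 ± 0.07, edgeR adjusted p = 1.7e-07) and fell in K19R (-0.32 ± 0.08, edgeR adjusted p = 0.00080), and the difference of the steps passed (-0.91 ± 0.11, edgeR adjusted p = 3.1e-07). Between days 2 and 6 both rose, by 1.68 ± 0.08 log2 in FLAG-WT and 1.76 ± 0.08 in K19R, and the difference of these steps did not pass (0.08 ± 0.11, edgeR adjusted p = 0.55) except with library totals, where the rises were 1.28 and 1.75 (difference 0.46, adjusted p = 0.00061). From day 6 to 10 K19R rose further (0.63 ± 0.07, edgeR adjusted p = 5.5e-08) and FLAG-WT fell slightly (-0.22 ± 0.07, edgeR adjusted p = 0.016), the latter call being lost with RLE size factors and in 3 of 4 fits without 1 library. K19R libraries were 1.78-fold lower on day 2 (-0.83 ± 0.08, edgeR adjusted p = 1.4e-09) and 1.68-fold lower on day 6 (-0.74 ± 0.07, edgeR adjusted p = 2.7e-09), and on day 10 the lines overlapped (0.11 ± 0.07, edgeR adjusted p = 0.20). On day 10 Rbbp7 passed as higher in K19R with library totals only (0.41, adjusted p = 2.6e-05) and without FLAG-WT day 10 replicate 1 (0.21, 0.029).

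Rbbp4, the autosomal paralog of Rbbp7, ended the course lower in both lines. FLAG-WT libraries held 383 and 407 CPM of Rbbp4 on day 0, 340.1 and 332 on day 2, 175 and 175 on day 6 and 218 and 193 on day 10, and K19R libraries 372 and 336, 357 and 369.9, 249 and 253 and 208 and 214. K19R was lower without overlap on day 0 and higher without overlap on days 2 and 6, and the lines overlapped on day 10. With TMM scaling the day 6 difference passed (0.52 ± 0.07, edgeR adjusted p = 4.9e-07), a 1.44-fold higher level in K19R, against -0.16 ± 0.07, edgeR adjusted p = 0.16 on day 0 and 0.11 ± 0.07, edgeR adjusted p = 0.20 on day 2. In FLAG-WT, Rbbp4 fell to day 6 and then rose (0.24 ± 0.07, edgeR adjusted p = 0.0083), the rise being lost without FLAG-WT day 10 replicate 1 (adjusted p = 0.16). In K19R it fell in both later steps, and the line difference passed from day 2 to 6 (0.41 ± 0.10, edgeR adjusted p = 0.0014) and from day 6 to 10 (-0.49 ± 0.10, edgeR adjusted p = 0.00032). The first steps were small. The FLAG-WT fall from day 0 to 2 (-0.23 ± 0.07, edgeR adjusted p = 0.0054) was lost without FLAG-WT day 0 replicate 2 (0.076) or day 2 replicate 2 (0.052), and the line difference there (0.27 ± 0.10, edgeR adjusted p = 0.040) in 5 of 8 fits without 1 library, FLAG-WT day 0 replicate 2 among them, and without a low-count filter (0.26, 0.069).

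The Rbbp7 share of the summed per-length level of Rbbp4 and Rbbp7 was 67.8 and 67.5% in FLAG-WT on day 0, 78.5 and 79.1% on day 2, 95.8 and 95.8% on day 6 and 94.3 and 94.3% on day 10. In K19R it was 70.7 and 71.6%, then lower on day 2 (65.4 and 66.3%), and then 90.5 and 90.4% and 94.4 and 94.8%. The lines did not overlap on any day, and their means came closest on day 10. In the wildtype mESCs the Rbbp7 share was 71.4 and 72.9%. The 50-base words that Rbbp7 shares with Gm6382 and its exon overlap with Txlng bear on these shares.

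**Figure D2:**
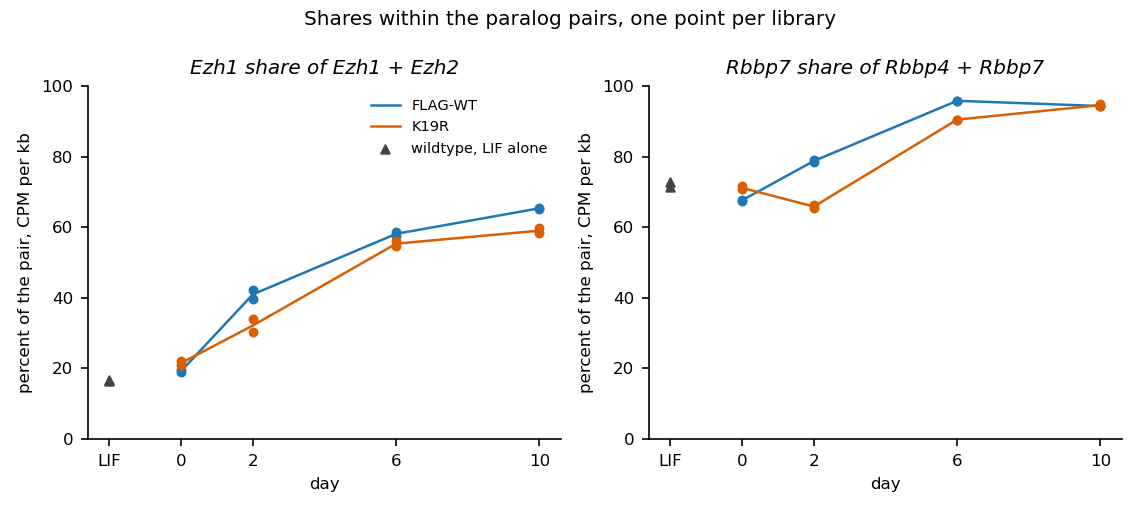
Ezh1 share of Ezh1 plus Ezh2 (left) and Rbbp7 share of Rbbp4 plus Rbbp7 (right), in percent of the summed CPM per kb of exon, against day, with 1 point per library, lines through group means and triangles for the wildtype mESCs. The Ezh1 share climbs from 19.3 to 65.4% in FLAG-WT and from 21.6 to 59.0% in K19R, and the Rbbp7 share of K19R dips to 65.8% on day 2 before it reaches 94.6%.

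The question put by the knock-in design is how the lines differ on a given day. On day 0, 1 of 6 members (Ezh1) differed, where 10.5% of all genes were called (5.51% higher, 4.98% lower). On day 2, 3 members differed (Eed, Ezh1 and Rbbp7), all lower in K19R, where 21.8% of genes were called lower, 20% higher and 41.8% in all. On day 6, 5 differed, Ezh2, Ezh1, Suz12 and Rbbp7 lower and Rbbp4 higher in K19R, where 30.1% of genes were lower, 28.4% higher and 58.5% called in all. On day 10, 1 member (Ezh1, lower in K19R) differed, where 58.4% of genes were called, 33.2% higher and 25.2% lower. The members' median absolute log2 difference was 0.54 on day 6 and 0.11 on day 10, while over all genes it was 0.60 and 0.58. Scaling by library totals moved the median log2 difference of all genes from 0.02 to 0.38 on day 6 and from 0.13 to 0.44 on day 10, and the share of calls that were higher in K19R from 48.6% to 72.9% and from 56.9% to 77.01%. Under that scaling the day 6 differences were -0.21 for Ezh2, -0.37 for Ezh1, -0.39 for Rbbp7 and 0.88 for Rbbp4, all still called, and on day 10 Eed, Ezh2, Rbbp4 and Rbbp7 passed as higher in K19R and Ezh1 did not pass.

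**Figure D3:**
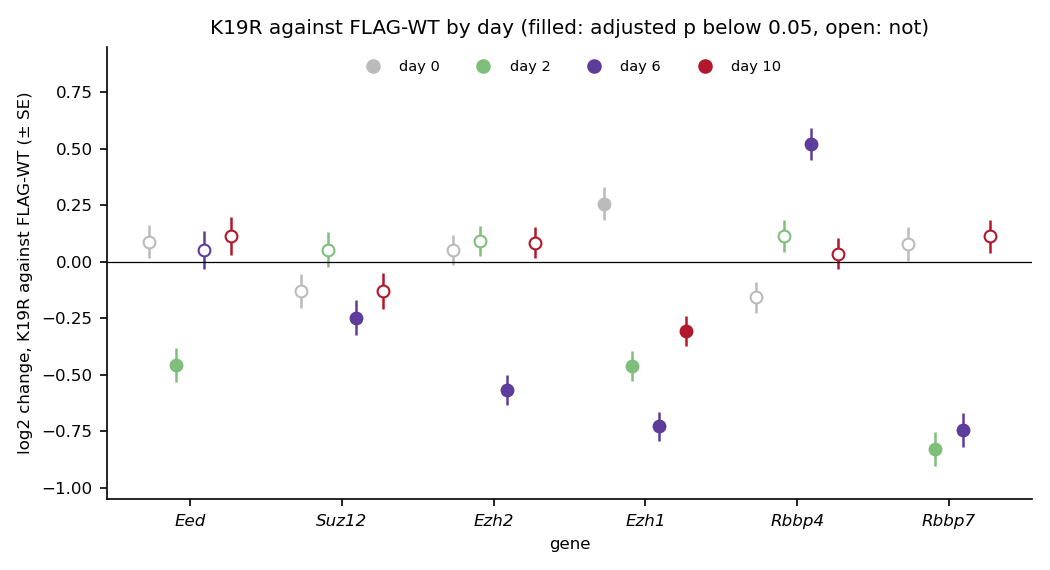
Log2 change of K19R against FLAG-WT (± SE from edgeR) for each member on days 0, 2, 6 and 10, filled where the adjusted p was below 0.05 and open where it was not. Differences are widest on days 2 and 6, from -0.83 for Rbbp7 to 0.52 for Rbbp4, and on day 10 all lie between -0.31 and 0.11.

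Each step was also tested within a line. In FLAG-WT, 4 members changed from day 0 to 2, Ezh1 and Rbbp7 upward and Eed and Rbbp4 downward, where 56.1% of genes were called (28.5% higher, 27.6% lower). From day 2 to 6, 5 changed, 2 higher and 3 lower (background 72.6% of genes, 35.6% higher and 37% lower), and from day 6 to 10, 4 changed, 1 higher and 3 lower (background 44.2% of genes, 21.2% higher and 22.9% lower). In K19R, 3 changed in the first step, 1 higher and 2 lower (background 56.4% of genes, 28.5% higher and 27.9% lower). All 6 changed in the next, 2 higher and 4 lower (background 66.8% of genes, 34.7% higher and 32.1% lower), and 3 in the last, 2 higher and 1 lower (background 58.5% of genes, 33.4% higher and 25.2% lower). The test of the step difference between lines was passed by 4 members from day 0 to 2, 1 higher and 3 lower (background 27.1% of genes, 12.7% higher and 14.4% lower). It was passed by 5 from day 2 to 6, 2 higher and 3 lower (background 44.5% of genes, 23.2% higher and 21.3% lower), and by 4 from day 6 to 10, 3 higher and 1 lower (background 39% of genes, 24.4% higher and 14.6% lower). Eed from day 6 to 10 passed in neither line (0.06 ± 0.08, edgeR adjusted p = 0.57 in FLAG-WT and 0.13 ± 0.08, edgeR adjusted p = 0.19 in K19R). Library totals moved the median of all genes from -0.05 to -0.45 in FLAG-WT from day 2 to 6, from -0.12 to -0.53 from day 0 to 10 and from 0.08 to 0.45 in the line difference from day 2 to 6, with 49.1%, 47.5% and 52.1% of calls higher becoming 34.6%, 36.8% and 80.8%. FLAG-WT and K19R steps share no libraries, but consecutive steps within a line share a group.

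Markers of other cell types also differed between the lines, and their part in the members' results was not tested. Summed over 9 genes of primitive and visceral endoderm, FLAG-WT libraries held 1666 to 1689.6 CPM on day 2, 14239.5 to 14469 on day 6 and 28941 to 29352 on day 10, and K19R libraries 176 to 186, 5393 to 5749.7 and 17211 to 17999. On day 2 and on day 6, 8 of these 9 genes were lower in K19R and none higher, while 2 were higher, 3 lower and 4 not called on day 10 (median -0.03 log2). Over all genes tested, 21.8% were called lower and 20% higher in K19R on day 2. The same shares were 30.1% and 28.4% on day 6, and 25.2% and 33.2% on day 10. The 9 pluripotency genes summed to 628 to 698 CPM on day 6 and 514 to 536 on day 10 in FLAG-WT. In K19R they summed to 1225 to 1332 and 936 to 1094. On both days 7 of 9 were higher and 2 lower in K19R (medians 1.62 and 2.30 log2). On day 2, 1 of these 9 was higher and 5 were lower in K19R (median -0.40 log2). None of either list was at 0 in any embryoid body library. The 5 fibroblast genes summed to 2.80 to 3.84 CPM on day 10 in FLAG-WT and 70.2 to 72.1 in K19R, where all 5 were higher, and Postn and Col3a1 were at 0 in both FLAG-WT libraries of day 6. The 17 replication and cell cycle genes summed to 2579 to 2601 CPM in FLAG-WT and 3416 to 3539 in K19R on day 6, and to 2608 to 2673 and 2633 to 2659 on day 10. The 6 mesoderm genes summed to 256 to 262 CPM in FLAG-WT and 33.3 to 36.3 in K19R on day 2. On day 6 they summed to 139 to 155 and 66.4 to 66.8 CPM, and on day 10 to 100 to 109 and 188 to 201. Of the 5 tested, 3 were lower and none higher in K19R on day 2, with Pdgfra (-3.74 log2) furthest. On day 6, 3 were higher and 1, Pdgfra (-1.47), was lower, and on day 10 all 5 were higher. Of 4 formative epiblast genes, all were higher in K19R on days 2 and 6 and 3 on day 10. The 4 neural genes summed to 60.0 to 69.9 CPM in FLAG-WT and 87.6 to 90.7 in K19R on day 6, and to 159 to 181 and 57.4 to 63.7 on day 10. On day 6, 2 of these 4 were higher in K19R and none lower. On day 10, 2 were higher, Sox1 (1.89 log2) and Tubb3 (1.86), and 2 were lower (median 0.36), so the sum does not stand for each gene.

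Set beside each other per kilobase of exon, the genes of the catalytic core changed order during the course. In FLAG-WT, Eed went from 47.0 ± 1.3 CPM per kb (SD, n = 2) on day 0 to 11.8 ± 0.77 on day 10, while Ezh1 and Ezh2 together went from 25.8 ± 0.74 to 48.7 ± 1.1 on day 6 and 39.1 ± 0.65 on day 10. Eed was thus above the summed methyltransferase genes on day 0 and below them from day 2 on, with a ratio of 1.82 ± 0.1 on day 0 and 0.302 ± 0.025 on day 10. In K19R the summed methyltransferase level had a narrower range, 27.6 ± 0.68 on day 0, 31.4 ± 0.96 on day 2, 30.8 ± 1.4 on day 6 and 35.1 ± 0.17 on day 10. The ratio of Eed to the pair in K19R was 1.81 ± 0.089 on day 0 and 0.365 ± 0.018 on day 10. Suz12 stayed the highest of the 3 in every library, at 90.9 ± 0.11 and 55.2 ± 2.6 CPM per kb on days 0 and 10 in FLAG-WT and 83.1 ± 0.67 and 50.5 ± 7.1 in K19R. The histone-binding pair went from 139.6 ± 5.1 to 414 ± 39 in FLAG-WT and from 140.3 ± 7.2 to 447 ± 34 in K19R. RBBP4 and RBBP7 also serve other complexes, so their transcripts are not those of PRC2 alone, and transcript levels do not give the amount of protein.

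**Figure D4:**
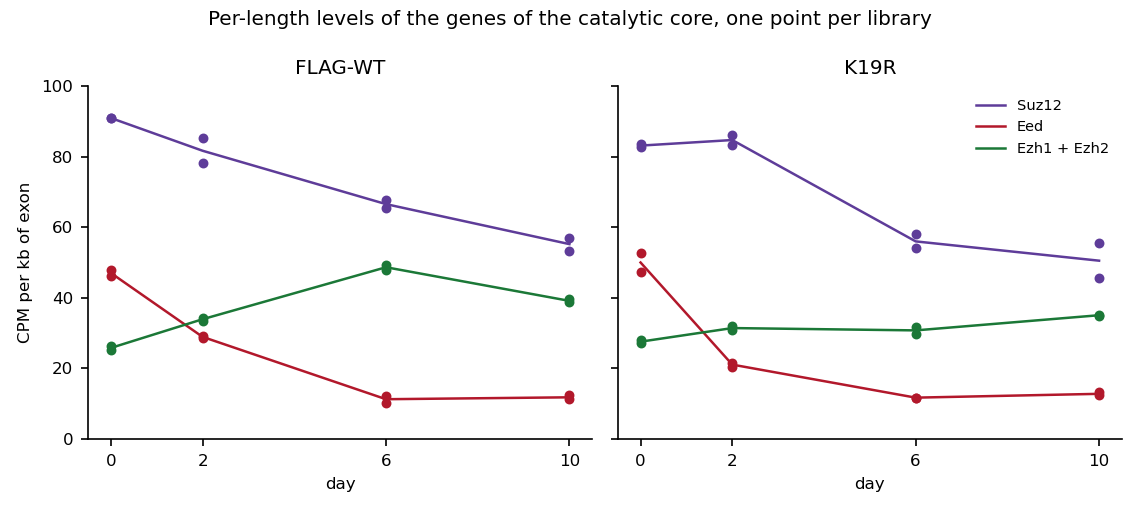
Per-length level (CPM per kb of exon) of Suz12, Eed and the sum of Ezh1 and Ezh2 against day in FLAG-WT (left) and K19R (right), with 1 point per library and lines through group means. Eed starts at 47.0 and 50.0 and crosses below the summed methyltransferase genes by day 2 in both lines, and that sum peaks at 48.7 on day 6 in FLAG-WT but not in K19R.

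The wildtype mESCs in LIF alone differed from both day 0 lines in most members, with Ezh2 furthest. They held 252 and 256 CPM of Ezh2, 55.0 and 57.0 of Ezh1, 209 and 214 of Eed, 308 and 349.5 of Suz12, 517 and 492 of Rbbp4 and 429 and 439.7 of Rbbp7. No library of either day 0 line reached their levels of Eed, Ezh2, Ezh1, Rbbp4 and Rbbp7, and their Suz12 lay below all 4 day 0 libraries. How many of all genes lay apart in this way was not counted. Against FLAG-WT on day 0 all 6 passed, 5 higher and 1 (Suz12) lower, where 64.9% of 19296 genes were called, 32.4% higher and 32.5% lower. Against K19R on day 0, 5 passed, 4 higher and 1 lower, where 65.2% of genes were called, 32.7% higher and 32.5% lower. Ezh2 was higher by 0.87 ± 0.06 log2 than in FLAG-WT (edgeR adjusted p = 2.8e-12) and by 0.81 ± 0.06 than in K19R (9.8e-12). Rbbp7 was higher by 0.66 ± 0.07 (7.0e-09) and 0.58 ± 0.07 (6.8e-08), and Ezh1 by 0.60 ± 0.07 (2.2e-08) and 0.34 ± 0.07 (9.6e-05). Rbbp4 was higher by 0.35 ± 0.07 (5.4e-05) and 0.51 ± 0.07 (2.2e-07). Suz12 was lower (-0.45 ± 0.08, edgeR adjusted p = 1.5e-05 against FLAG-WT and -0.32 ± 0.08, edgeR adjusted p = 0.00085 against K19R). Eed was higher than in FLAG-WT (0.23 ± 0.07, edgeR adjusted p = 0.0061), a call lost without wildtype mESC replicate 2 (0.052), without FLAG-WT day 0 replicate 2 (0.060) and without a low-count filter (0.081). It did not pass against K19R (0.14 ± 0.07, edgeR adjusted p = 0.082), where it passed with library totals (0.19, 0.023) and without K19R day 0 replicate 1 (0.22, 0.036). Both comparisons use the same wildtype libraries. Medium, FLAG knock-in and count table differ together here and cannot be told apart, and the 5 fibroblast genes summed to 106 to 114 CPM in the wildtype mESCs against 8.97 to 9.83 in FLAG-WT and 8.51 to 9.43 in K19R on day 0.

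Ordered by group mean, Eed ran from the day 6 and day 10 groups, whose 2 lowest neighbouring pairs overlapped, through K19R day 2 and FLAG-WT day 2 to the day 0 lines, which overlapped, and the wildtype mESCs. Ezh2 fell into 3 tiers, with FLAG-WT day 10, K19R day 6 and K19R day 10 at 90.5 to 96.0 CPM, the other 5 FLAG-EED groups at 134 to 145 CPM, each overlapping its neighbour, and the wildtype mESCs above. For Ezh1 no neighbouring groups overlapped, from FLAG-WT day 0 (37.0 ± 0.53 CPM, SD, n = 2) to FLAG-WT day 6 (211 ± 7.6). Rbbp7 was lowest in K19R on day 2 (233 ± 13) and highest in FLAG-WT on day 6 (1329 ± 16), and among its neighbours FLAG-WT day 10 and K19R day 10 overlapped. Suz12 and Rbbp4 were highest in FLAG-WT on day 0 (449.6 ± 0.54) and in the wildtype mESCs (505 ± 17), with 5 and 3 overlapping neighbours. Among 19296 genes ranked by CPM per kb, Rbbp7 stood above 97.7% in FLAG-WT on day 0 and 99.5% on day 10, Ezh1 above 63.2% and 86.8%, and Eed above 94.6% and 75.3%.

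Other genes of the pathway also changed in both directions. Over all genes, 41.8% were called between the lines on day 2, 58.5% on day 6 and 58.4% on day 10. From day 0 to 10, 77.9% were called in FLAG-WT and 73.9% in K19R. Of 8 genes for accessory subunits, which guide PRC2 to its sites, none was higher and 3 were lower in K19R on day 2, 3 were higher and 4 lower on day 6 (median -0.25 log2, against 0.02 over all genes tested) and 3 higher and 4 lower on day 10. On day 6 the largest differences among them were those of Phf19 (2.00 ± 0.22, edgeR adjusted p = 1.2e-08) and Epop (-1.55 ± 0.07, edgeR adjusted p = 2.0e-15). From day 0 to 10, 3 rose and 5 fell in each line (median -0.96 in FLAG-WT and -0.88 in K19R). Of 19 genes of PRC1, the complex that binds the PRC2 mark and ubiquitinates histone H2A, 5 were higher and 9 lower in K19R on day 2 and 6 higher and 10 lower on day 6, with Cbx8 (-1.90 ± 0.15, edgeR adjusted p = 3.1e-11) among the furthest. Among 3 demethylase genes of the mark, Kdm6b was lower in K19R on day 6 (-0.85, edgeR adjusted p = 7.0e-10) and Uty was higher in K19R on all 4 days. Of the acetyltransferase genes Crebbp (CBP) and Ep300 (P300), neither passed on days 0 and 2, Ep300 was higher in K19R on day 6 (0.51, adjusted p = 6.2e-05), and both were higher on day 10.

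RBBP4 and RBBP7 also belong to the complexes CAF-1, NuRD, SIN3, HAT1 and NURF. Of 21 genes for other subunits of these, 9 higher and 2 lower were called in K19R on day 2 (background 41.8% of genes). On day 6, 7 higher and 8 lower were called (background 58.5%), and on day 10, 6 higher and 8 lower (background 58.4%). The medians were 0.17, -0.02 and -0.04 log2. Over the whole course 10 higher and 11 lower were called in FLAG-WT (background 77.9%) and 5 higher and 12 lower in K19R (background 73.9%). Of the 17 replication and cell cycle genes, 1 higher and 16 lower were called in FLAG-WT from day 2 to 6 (background 72.6% of genes). In that step Eed, Suz12 and Rbbp4 fell and Ezh1 and Rbbp7 rose. In K19R against FLAG-WT on day 6, 11 higher and 1 lower were called (median 0.36, background 58.5%). There Rbbp4 was higher and Ezh2, Ezh1, Suz12 and Rbbp7 were lower. The list had the same counts on day 2 (median 0.28, background 41.8%), where Eed, Ezh1 and Rbbp7 were lower and Rbbp4 did not pass. On day 10, 8 higher and 2 lower were called (median 0.13, background 58.4%). The relation of this list to the members was not tested.

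Over the 8 FLAG-EED group means, the genes whose centred log2 profiles lay closest to each member (smallest root mean square difference among 19086 genes that are no members) were sought, and those reported are the following. For Eed they were Gm14439 (0.05, r = 0.998), a gene model at 0.449 to 2.10 CPM, Wdr76 (0.14, r = 0.986) and Nucks1 (0.15, r = 0.985). Those of Ezh2 were Clcn2 (0.07, r = 0.972), Cox7b (0.10, r = 0.942) and Rfng (0.10, r = 0.937). For Ezh1 they were Slc12a9 (0.11, r = 0.992), Idua (0.13, r = 0.995) and Snx8 (0.13, r = 0.990). Those of Suz12 were Eif2s1 (0.07, r = 0.977), Tubgcp5 (0.07, r = 0.973) and Tgif1 (0.07, r = 0.977). Near Rbbp4 were Gm6563 (0.10, r = 0.974) and Cct3 (0.10, r = 0.971), a chaperonin subunit. Those of Rbbp7 were Trpm2 (0.12, r = 0.993), Gm20554 (0.12, r = 0.994), at 0.0487 to 0.558 CPM, and Ralgapa2 (0.13, r = 0.993). Among the members themselves, Suz12 and Ezh2 lay closest (0.13, r = 0.91), and Rbbp4 and Rbbp7 had the most negative correlation (r = -0.98), with n = 8 group means that share their libraries. These are descriptions across 8 points and carry no test.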

How the data were processed

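Counts from RNA-seq of 18 libraries were analysed. Per the file headers, the authors deposited whole-number counts of fragments by gene name, made with featureCounts 1.6.3 (FLAG-EED libraries) and 1.6.4 (wildtype mESCs) over exons of GENCODE vM19 on GRCm38, keeping pairs with both ends mapped, leaving out chimeric pairs and with no strand option. Per the submitters' processing notes, STAR 2.7.0c, Trim Galore 0.6.0, FastQC 0.11.7 and bcl2fastq 2.17 were used, with settings that are not given in the sources used here. Without strand, reads from overlapping genes on opposite strands cannot be told apart.

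Low counts were removed with filterByExpr by group (minimum 10, total 15), libraries were scaled by TMM, and edgeR 4.0.16 in R 4.3.3 fitted glmQLFit with 1 coefficient per group and no block. The 16 FLAG-EED libraries formed 1 fit (19092 genes, 8 residual degrees of freedom), and all 18 libraries a further fit (19296 genes, 9 degrees) for the comparisons with wildtype mESCs. Each of 17 comparisons was tested with glmQLFTest, two-sided, with Benjamini-Hochberg adjustment over all genes. SE is the absolute log2 change over the square root of F. Levels are CPM with TMM factors of the 18-library scale, divided by exonic length where genes are compared. The script was checked on simulated counts. DESeq2 1.42.0, other scaling, no filter, a replicate block, smaller fits and leaving out each library were the alternatives.

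Replicates of a group correlated at 0.990 to 0.994 (log2 CPM across genes). Their counts differed beyond sampling noise, the chi-square over its degrees of freedom being 2.36 to 12.3. Whether replicates were separate cultures is not on the labels, and p-values then measure only the spread between these samples, technical or not. The members, the gene and marker lists and the tests were chosen with earlier results of these data known. By the rule for named genes, all 6 members were named, with the 3 other genes nearest in profile to each, and genes of the lists only where among the 2 with the largest called change in a comparison. Afp was named after its values were seen. Some genes that this rule names are not reported here.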

Additional observations from a re-analysis of the deposited data

Results flagged for a closer look

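In 13 results the change of a member over a step of differentiation differed between the K19R and FLAG-WT lines by the test of that difference (edgeR's quasi-likelihood test, adjusted over all genes, 2 libraries per group). Of the 6 members, 4 passed from day 0 to 2, 5 from day 2 to 6 and 4 from day 6 to 10. Over all genes the same tests were passed by 27.1%, 44.5% and 39% in these steps. Values are the K19R step minus the FLAG-WT step on the log2 scale. From day 0 to 2 these were Eed (-0.54, adjusted p = 0.00030), Ezh1 (-0.72, adjusted p = 3.7e-06), Rbbp4 (0.27, adjusted p = 0.040) and Rbbp7 (-0.91, adjusted p = 3.1e-07). From day 2 to 6 they were Eed (0.51, adjusted p = 0.00057), Ezh2 (-0.66, adjusted p = 2.8e-06), Ezh1 (-0.27, adjusted p = 0.021), Suz12 (-0.30, adjusted p = 0.027) and Rbbp4 (0.41, adjusted p = 0.0014). From day 6 to 10 they were Ezh2 (0.65, adjusted p = 5.3e-06), Ezh1 (0.42, adjusted p = 0.00061), Rbbp4 (-0.49, adjusted p = 0.00032) and Rbbp7 (0.86, adjusted p = 2.9e-07).

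For Ezh2 the differences of both later steps were of opposite sign, and they share the day 6 libraries. With library totals in place of TMM they were -0.28 and 0.59, and from day 2 to 6 those of Ezh1 (0.11) and Suz12 (0.079) turned and did not pass. For Rbbp7 the first and last differences were, in the same way, of opposite sign, and they share no library. By day 10 the difference between the lines was 0.08 ± 0.07 log2 for Ezh2 and 0.11 ± 0.07 for Rbbp7, and neither passed (edgeR adjusted p = 0.31 and 0.20).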

How the results depend on the processing

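Of 1092 values of single members under another setting, 1035 kept their side of the threshold, 34 lost and 19 gained a call, and 4 turned with a call in either fit. All 4 turned with library totals only: Suz12 at day 6 (0.11), Ezh2 in FLAG-WT from day 2 to 6 (-0.37), and Ezh1 (0.11) and Suz12 (0.079) in the line difference from day 2 to 6. The 1035 include values that changed sign but were called in neither fit. With library totals Suz12 on day 10, for example, went from -0.13 to 0.17. In the counts of members called, day 0 went from 1 to 3 when only the groups compared were fitted, and to 0 (range 0 to 0) without any 1 library. Over all genes, 2003 calls at day 0 became 3974 and, without 1 library, 844 to 957. Day 10 went from 1 to 2 with RLE size factors, 4 with library totals, 2 with DESeq2 and 1 to 2 without 1 library. FLAG-WT from day 6 to 10 held 2 to 3 without 1 library, against 4, with 2 when FLAG-WT day 6 replicate 1 or FLAG-WT day 10 replicate 2 was left out. The line difference from day 2 to 6 held 3 to 5, against 5, with 3 without K19R day 2 replicate 1. The cause was not tested. The replicate numbers did not pair the samples (correlations of same-numbered deviations of -0.03 to 0.04 over 36 pairs of groups), and the replicate block changed none of 102 calls of a member (with it, 1 member was called on day 0, 3 on day 2, 5 on day 6 and 1 on day 10). The shares of Ezh1 and Rbbp7 moved when levels were not divided by exonic length, for example to 43.6% for Ezh1 and 55.2% for Rbbp7 in FLAG-WT at day 2. With 2 libraries per group, a step that leaves 1 out assumes that the lone library varies like the other groups.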
